A study of Mus musculus with 2 samples.

Results

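The lysosome is the acidic compartment in which cells break down proteins, lipids and sugar chains, and 52 mouse genes of this compartment and of the pump that acidifies it are described here. They were chosen by symbol: 9 subunits of the V1 sector of the vacuolar ATPase (V-ATPase), 6 subunits of its V0 sector, 2 accessory proteins, 11 cathepsins, 8 glycosidases, 8 genes of lipid and peptide handling, and 8 genes of the lysosomal membrane and its regulation. Each symbol matched 1 of the 55536 mouse genes measured. The tissue was labelled as layer of hippocampus and came from adult female mice of strain 5xFAD/CAST, aged 8 to 10 months. 5xFAD mice deposit amyloid from human transgenes, including APP, that bear familial Alzheimer mutations and are expressed from the neuronal Thy1 promoter. CAST is a wild-derived strain. Total RNA (300 ng a library, with ERCC spike-in RNAs) was sequenced from 2 biological replicates of this 1 group, and no control group was analysed here. The labels name a single donor record for both, so an SD measures the spread between these 2 samples, which may be technical. No statistical test was possible with 1 group. What can be read from the tables is how high each gene stood, which transcripts made up its level and how far the replicates lay apart.

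The V-ATPase is a rotary proton pump. Its cytosolic V1 sector hydrolyses ATP, and its membrane-bound V0 sector carries protons into the lumen. In lysosomes the resulting acid activates the cathepsins and glycosidases, while in neurons the same pump also acidifies synaptic vesicles and so powers the loading of neurotransmitter. Inherited loss of many of the hydrolases causes lysosomal storage disease, often with neurodegeneration, and lysosomal hydrolases are abundant in microglia around amyloid plaques.

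Replicates 1 and 2 held 27683000 and 32169900 expected counts on mouse genes. Levels are in TPM, a transcript abundance scaled by length, so they can be compared between genes, and paired values give replicate 1 and then replicate 2. Markers of hippocampal neurons were all present, from 26.1 and 27.4 TPM for Prox1 of granule cells to 66.5 and 75.1 TPM for Mpped1. The choroid plexus marker Ttr measured 426 and 146 TPM in replicates 1 and 2, and all 5 markers of that tissue were lower in replicate 2. In bulk tissue, fewer cells of a type and less RNA per cell cannot be told apart.

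Of the 52 genes, 51 reached 1 TPM in both libraries, beside 60.2% of the 22015 nuclear protein-coding genes. Their median was 83.0 ± 1.43 TPM (SD, n = 2), against 15.3 ± 0.0566 TPM for the 13251 protein-coding genes detected. Among those detected genes, 44 of the 52 lay above percentile 50 by level and 28 above percentile 90. Together they made up 1.46% of all nuclear protein-coding TPM in each library. The V0 sector had the highest median, 177 ± 5.79 TPM, followed by the V1 sector at 115 ± 11.1 TPM and the accessory proteins at 110 ± 2.87 TPM. In replicate 1 alone the V1 median, 108 TPM, did not exceed that of the accessory proteins, also 108 TPM. Cathepsins reached 104 ± 3.72 TPM, membrane and regulatory genes 71.9 ± 0.598 TPM, and lipid and peptide handling genes 40.7 ± 1.77 TPM. Glycosidases were the lowest group at 18.0 ± 0.760 TPM. Only 2 genes lay near or under the detection limit, Ctsk and Atp6v0d2.

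**Figure D1:**
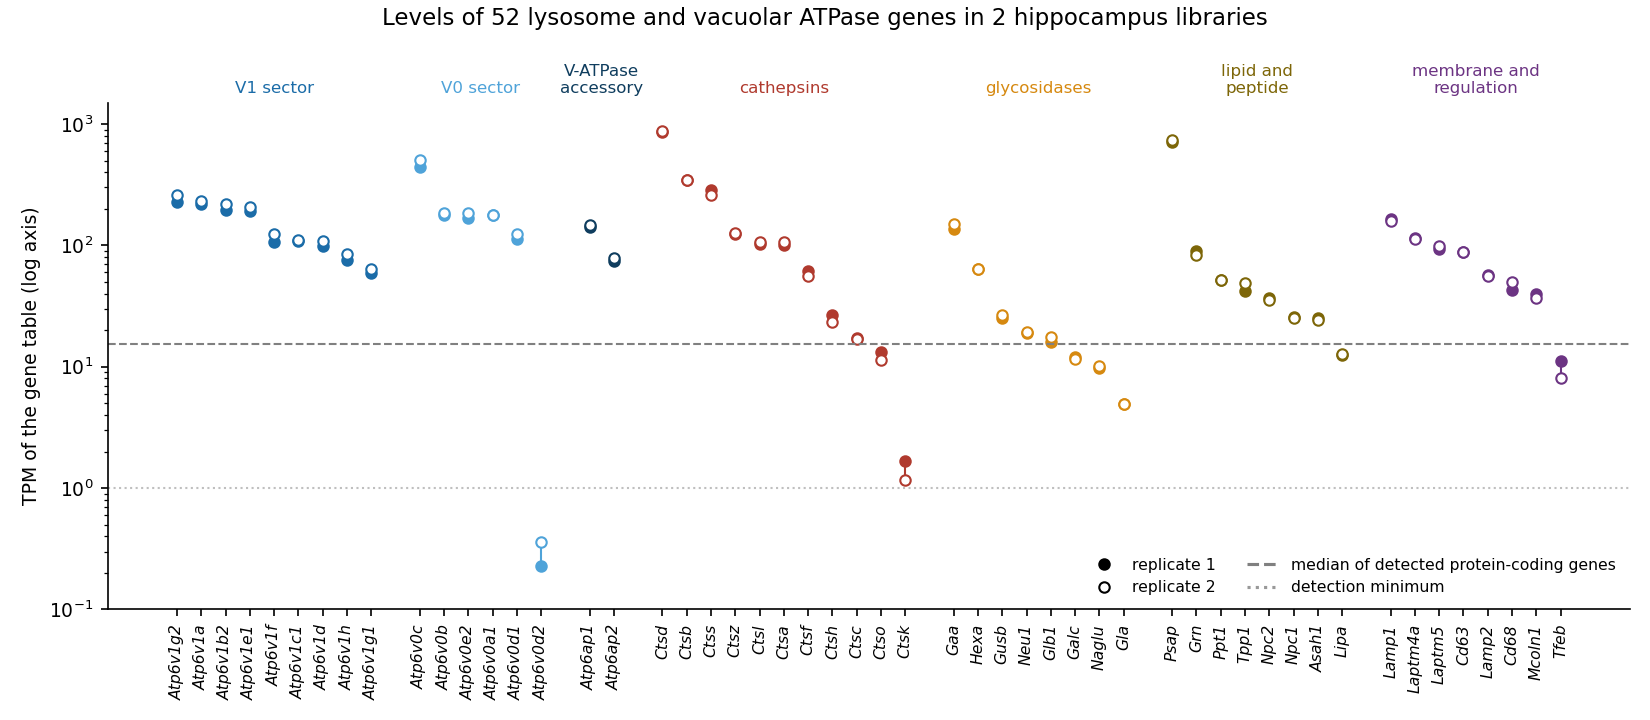
TPM of each of the 52 genes (log axis) in replicate 1 (filled) and replicate 2 (open), ordered by level within each role; the dashed line is the median of detected protein-coding genes, 15.3 TPM, and the dotted line the detection minimum of 1 TPM. V-ATPase subunits lie in a narrow high band apart from Atp6v0d2, while cathepsins run from Ctsd, with 863 TPM on average, down to Ctsk.

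All 9 genes of the V1 sector lay between 61.6 and 244 TPM on average. The catalytic subunit A gene Atp6v1a (chr16:44085402-44139705) had 219 and 233 TPM. Atp6v1b2, which encodes the brain form of subunit B and forms the ATP-hydrolysing ring with subunit A, had 197 and 219.5 TPM. The peripheral stalk, which holds that ring still, is built from subunits E and G: Atp6v1e1 had 191 and 207 TPM. Atp6v1g2 (chr17:35233660-35238767), the neuronal G subunit, was the highest gene of the sector with 228 and 260.3 TPM. Its ubiquitous counterpart Atp6v1g1 was the lowest with 59.6 and 63.5 TPM. These 3 stalk genes and both ring genes were higher in replicate 2. The rotor that turns inside the ring is made of subunits D and F. Atp6v1d had 98.9 and 108 TPM, and Atp6v1f had 107 and 123 TPM. Subunits C and H join the sector to V0 and govern its reversible release: Atp6v1c1 had 108 and 111 TPM, and Atp6v1h had 76.4 and 84.2 TPM. In the order of levels, 5 of the 8 neighbouring pairs of V1 genes had overlapping ranges over the 2 libraries, namely each step from Atp6v1g2 through Atp6v1a and Atp6v1b2 to Atp6v1e1, and each from Atp6v1f through Atp6v1c1 to Atp6v1d. The steps from Atp6v1e1 to Atp6v1f, from Atp6v1d to Atp6v1h and from Atp6v1h to Atp6v1g1 were clear of that spread.

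In the V0 sector, Atp6v0c (chr17:24163866-24169702), whose proteolipid forms most of the proton-carrying ring, was the highest V-ATPase gene with 445 and 501 TPM. Atp6v0b, the proteolipid present as a single copy in the ring, had 179 and 186 TPM. The ring thus drew 72.1 ± 1.15% of its TPM from Atp6v0c and 27.9% from Atp6v0b. Atp6v0a1 (chr11:101009452-101063719), the a subunit that lines the proton path and is the main form at synapses, had 178 and 177 TPM. Atp6v0e2, a small membrane subunit, had 169 and 186 TPM. Atp6v0d1, which links the ring to the rotor, had 113 and 124 TPM. Its paralog Atp6v0d2, known from osteoclasts and kidney, measured 0.230 and 0.360 TPM in the 2 libraries, with 11 and 15 counts, and was the 1 gene of the 52 not detected. Within V0 the levels of Atp6v0b, Atp6v0e2 and Atp6v0a1 overlapped over the 2 libraries, while Atp6v0c above them and Atp6v0d1 below them stood apart.

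Where a subunit has several genes, 1 of them usually carried nearly all of the TPM. Atp6v0d1 held 99.8% of subunit d, Atp6v1b2 99.9% of subunit B, and Atp6v1c1 98.7 ± 0.631% of subunit C. The kidney and epididymis gene Atp6v1b1 had 0.05 and 0.360 TPM, and the testis gene Atp6v1e2 had 0 and 0.05 TPM. The kidney G subunit gene Atp6v1g3 was listed at 0 in both libraries, a count that allows up to 3 reads a library. A second gene added more than 10% in 3 subunits. Subunit G was 79.8 ± 0.781% Atp6v1g2 and 20.2% Atp6v1g1. Subunit e was 88.0 ± 0.696% Atp6v0e2 and 12% Atp6v0e. Subunit a was 76.2 ± 1.87% Atp6v0a1 and 11.5 ± 0.408% Atp6v0a2, with 8.82 ± 2.49% from Tcirg1, the a3 form known from osteoclasts, and 3.51 ± 0.211% from Atp6v0a4. Tcirg1 was the paralog that differed most in share between the libraries, with 25.1 and 16.1 TPM. The gap was smaller in counts, where 704 and 682 reads gave a log2 ratio of -0.24 after scaling.

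**Figure D2:**
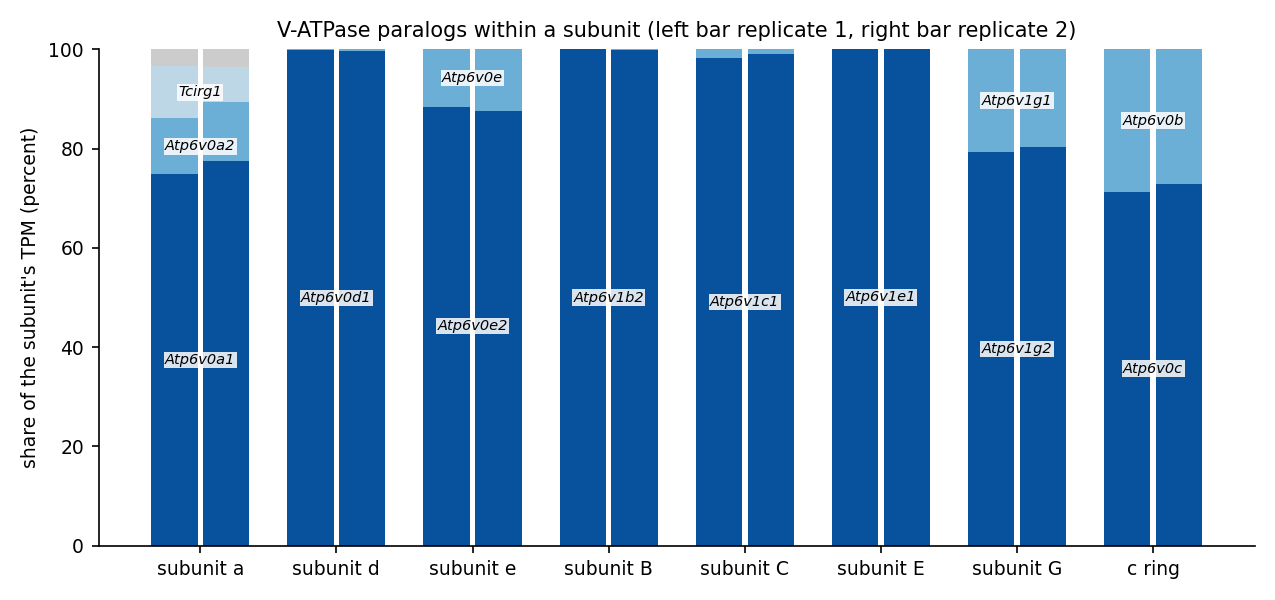
Share of a subunit's summed TPM (percent) taken by each of its genes, with replicate 1 as the left bar and replicate 2 as the right bar of each pair; the unlabelled grey piece of subunit a is Atp6v0a4. Subunits B, C, d and E are nearly all 1 gene, whereas Atp6v0e gives 12% of subunit e, Atp6v1g1 20.2% of subunit G and Atp6v0a2 11.5% of subunit a.

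The accessory proteins assist assembly and sorting of the pump. Atp6ap1 had 142 and 147 TPM, and Atp6ap2, also known as the prorenin receptor, had 74.0 and 78.0 TPM. Both genes lie on the X chromosome, and their levels were well apart.

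Cathepsins ran from the highest of the 52 genes down to the detection limit. The aspartic protease gene Ctsd (chr7:142375911-142388038) was the highest of the 52 with 857 and 868 TPM. Among the cysteine proteases, Ctsb had 348 and 346 TPM, with the libraries nearly level. Ctss, which is known from microglia and trims the invariant chain of MHC class II, had 287 and 260.1 TPM and was lower in replicate 2. Ctsz, a carboxypeptidase, had 123 and 126 TPM. Ctsl, a broad endopeptidase, had 102 and 107 TPM. Ctsa, the serine carboxypeptidase that also protects beta-galactosidase and neuraminidase, had 101 and 106 TPM. Ctsl and Ctsa were the only neighbours in the order of cathepsins whose ranges overlapped. Ctsf had 61.2 and 55.5 TPM, and Ctsh, an aminopeptidase, had 26.9 and 23.5 TPM. Ctsc, which activates serine proteases of immune granules, had 17.3 and 17.0 TPM, close to the typical detected gene. The cysteine protease Ctso had 13.1 and 11.4 TPM. Ctsk, the collagen-cleaving enzyme of osteoclasts, had 1.66 and 1.17 TPM, from 46 and 37 counts, so its level rests on few reads.

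Among the glycosidases, Gaa, which degrades glycogen and is lost in Pompe disease, stood highest with 137 and 149.7 TPM. Hexa, the alpha chain of the beta-hexosaminidase that degrades GM2 ganglioside, had 63.6 and 63.4 TPM. Gusb, which removes glucuronic acid from glycosaminoglycans, had 25.2 and 26.7 TPM. The sialidase gene Neu1 had 18.8 and 19.4 TPM, and Glb1, for the beta-galactosidase that acts on GM1 ganglioside, had 16.0 and 17.6 TPM. Galc, which degrades the galactolipids of myelin, had 12.1 and 11.5 TPM. Naglu, an enzyme of heparan sulfate breakdown, had 9.72 and 10.1 TPM. Gla, which removes alpha-galactose from glycolipids, was lowest with 4.93 and 4.95 TPM. No neighbouring pair in this order overlapped, so the 8 enzymes were ranked alike in both libraries.

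Psap (chr10:60277627-60302597), the precursor of the saposins that present lipids to the hydrolases, was second among the 52 with 713 and 731 TPM. Grn, which encodes progranulin, a secreted protein that is cut into granulins in lysosomes, had 89.7 and 83.9 TPM. Ppt1, which removes palmitate from proteins, had 52.1 and 51.8 TPM, and the tripeptidyl peptidase gene Tpp1 had 42.1 and 48.7 TPM. Loss of either enzyme causes a childhood neuronal ceroid lipofuscinosis. The Tpp1 gap in TPM was not matched in counts, where 1641 and 1802 reads gave a log2 ratio of -0.06 after scaling. The cholesterol exporter Npc2 of the lumen had 36.8 and 35.3 TPM, and its membrane partner Npc1 had 25.9 and 25.2 TPM. Asah1, the acid ceramidase gene, had 25.4 and 24.2 TPM, and Npc1 and Asah1 were the only neighbours here with overlapping ranges. Lipa, the acid lipase gene, had 12.5 and 12.6 TPM.

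Lamp1, a major glycoprotein of the lysosomal membrane, had 165 and 158 TPM. Laptm4a, a small membrane protein of late endosomes, had 114 and 112 TPM. Laptm5, its relative in blood-derived cells and microglia, had 93.5 and 98.5 TPM. The tetraspanin gene Cd63 had 87.7 and 87.5 TPM. Cd68, the macrophage and microglial marker, had 43.1 and 49.6 TPM. Mcoln1, the lysosomal calcium channel gene, had 39.6 and 36.7 TPM, and Tfeb, the transcription factor that activates lysosomal genes, had 11.1 and 8.02 TPM. The Tfeb gap in TPM was not matched in counts, where 282 and 303 reads gave a log2 ratio of -0.09 after scaling.

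Lamp2, with 56.9 and 55.5 TPM, is known for 3 proteins that differ in their ends, and its transcripts fell on all of them. They share their first exons and differ in the last, which encodes the transmembrane segment and cytosolic tail, and the tail of LAMP-2A is the docking site of chaperone-mediated autophagy. The alternative ends are given here because they mark the 3 proteins: 20 shared bases in lower case, then in capitals the coding bases from the point where the isoforms part to the last codon, 5′ to 3′ on the minus strand of chrX (mm10). The capitals start after base 1109 of the coding sequence in each.
Lamp2-201 (LAMP-2A, last exon chrX:38405062-38405571): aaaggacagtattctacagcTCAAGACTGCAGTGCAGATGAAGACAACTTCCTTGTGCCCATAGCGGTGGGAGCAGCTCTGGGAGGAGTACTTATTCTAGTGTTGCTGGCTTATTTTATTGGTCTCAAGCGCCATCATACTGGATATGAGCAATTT
Lamp2-202 (LAMP-2B, last exon chrX:38419507-38421851): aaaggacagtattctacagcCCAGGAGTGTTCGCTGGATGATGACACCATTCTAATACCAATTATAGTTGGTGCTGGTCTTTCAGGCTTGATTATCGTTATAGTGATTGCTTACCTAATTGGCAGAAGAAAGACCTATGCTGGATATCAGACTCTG
Lamp2-203 (LAMP-2C, last exon chrX:38401357-38402281): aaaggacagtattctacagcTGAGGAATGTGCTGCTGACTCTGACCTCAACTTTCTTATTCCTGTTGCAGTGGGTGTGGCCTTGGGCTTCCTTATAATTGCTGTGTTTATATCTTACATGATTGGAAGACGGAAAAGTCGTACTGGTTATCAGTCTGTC
Lamp2-202 took 39.7% of the gene's TPM in replicate 1 and 40.5% in replicate 2. Lamp2-201 took 35.3% and 35.5%, and Lamp2-203 took 20.9% and 19.1%. The kallisto-layout table, a second deposited quantification of the same reads, gave means of 40.4%, 34.5% and 20.2%. All 3 ends were therefore present in each library and in the same order.

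Between the replicates, the V-ATPase genes and the other lysosomal genes did not move alike. All 17 V-ATPase members were higher in replicate 2 on counts scaled by TMM, with a median log2 ratio of replicate 2 over replicate 1 of 0.14 and a range from 0.03 to 0.22. Of the 18906 mouse genes that averaged 10 counts or more, 52.9% were higher in replicate 2. Among the 35 members outside the V-ATPase, 15 were higher, with a median of -0.01 and a range from -0.48 to 0.21. The medians thus lay 0.15 apart on the log2 scale, and 11 of those 35 genes exceeded the smallest V-ATPase ratio. All 17 stayed higher in replicate 2 under each of 6 alternatives of scaling, prior count or count table. The 15 of 35 became 24 with scaling on spike-ins, which moved the median log2 ratio of all counted genes from 0.01 to 0.07, and their median became 0.05. With kallisto-layout counts that median was 0.00. All of these differences were small: the typical absolute log2 ratio was 0.0737 for the 52 genes and 0.122 for all counted genes. For genes with at least 1000 counts it was 0.0673 in 41 members and 0.0733 in all 5545 genes. A log2 ratio of 0.32 (25% higher) was reached upward by none of the members and by 6.84% of all counted genes. The same step downward was passed by 1 member, Ctsk, and by 13% of all counted genes. None was 2-fold apart, where 2.66% of all counted genes were. With at least 100 counts, 31 of 50 members were higher in replicate 2, beside 58.6% of the 13097 genes at that depth, and 0 of 50 passed 0.32 in either direction, beside 2.11% upward and 3.94% downward.

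By role, the V1 sector had 9 of 9 genes higher in replicate 2 (median log2 ratio 0.14), the V0 sector 6 of 6 (0.14) and the accessory proteins 2 of 2 (0.05). Cathepsins had 4 of 11 (-0.07), lipid and peptide handling 4 of 8 (-0.01) and membrane and regulation 1 of 8 (-0.03). With spike-in scaling the counts became 6 of 8 for lipid and peptide handling (median 0.05) and 6 of 8 for membrane and regulation (0.03), while cathepsins kept a median below 0 (-0.01). Glycosidases had 6 of 8 genes higher and a median of 0.09. The 5 highest ratios belonged to Atp6v0d2 (0.22), Cd68 (0.21), Atp6v1f (0.20), Atp6v1g2 (0.20) and Gaa (0.17). The 5 lowest belonged to Ctsk (-0.48), Ctso (-0.16), Ctss (-0.14), Asah1 (-0.10) and Ctsh (-0.09). Atp6v0d2 and Ctsk have under 50 counts in each library. On the TPM scale, 16 of the 17 V-ATPase members were higher in replicate 2, beside 7392 of the 13251 detected protein-coding genes. The exception was Atp6v0a1. The share of protein-coding TPM on the 17 members was 0.587% in replicate 1 and 0.618% in replicate 2.

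Cell type markers also differed between the replicates, in a direction that varied between lists and in some cases within a list. All 6 neuron markers were higher in replicate 2 (median log2 ratio 0.14), with a summed level of 1972 and 2152 TPM, and so were all 5 markers of hippocampal neurons (0.11). All 6 oligodendrocyte markers were lower (-0.26; summed 1937 and 1577 TPM), as were all 5 astrocyte markers (-0.06), all 5 choroid plexus markers (-1.54; summed 445.8 and 155 TPM) and all 4 perivascular macrophage markers (-0.24). Microglial markers were higher in 1 of 6 (-0.12; summed 652 and 623 TPM), and markers of plaque-associated microglia in 2 of 6 (-0.09). Endothelium markers were split, with 2 of 4 higher (-0.001, or 0.057 with spike-in scaling). No marker in these lists was at 0. The perivascular macrophage markers lay near the detection limit, from 1.065 TPM on average for Lyve1 to 1.79 TPM for Mrc1, and 3 of 4 were detected. With spike-in scaling 2 of 5 astrocyte markers (median -0.002) and 2 of 6 microglial markers (-0.06) were higher. So were 3 of 6 markers of plaque-associated microglia (-0.03), and the counts for neuron and oligodendrocyte markers were as before. Members known from microglia differed among themselves: Ctss had a log2 ratio of -0.14, Laptm5 -0.02 and Cd68 0.21, and among the markers Cx3cr1 had -0.14 and P2ry12 0.24. The part of cell composition in the V-ATPase ratios was not tested.

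**Figure D3:**
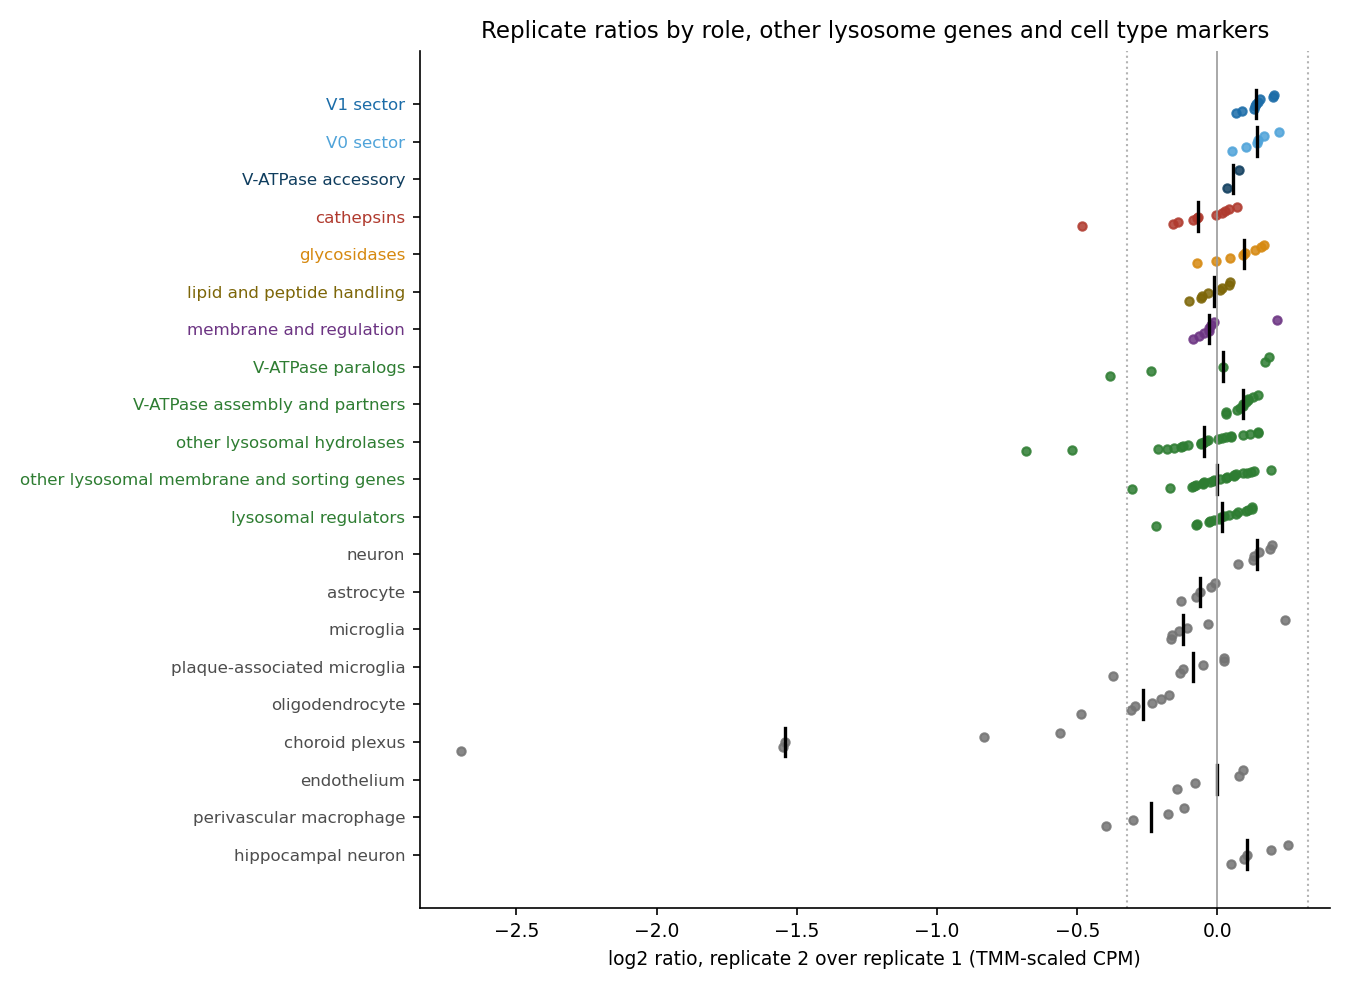
Log2 ratio of replicate 2 over replicate 1 (TMM-scaled CPM) for each gene averaging 10 counts or more, by role of the 52 genes (top), in other lysosome lists (green) and in cell type markers (grey); black bars are medians and dotted lines mark a log2 ratio of 0.32 in each direction. The 17 V-ATPase genes all lie right of 0, like the neuron markers and the 11 V-ATPase assembly and partner genes. Glycosidases also have a median right of 0 (0.09, 6 of 8 higher), while cathepsins, microglial and oligodendrocyte markers have medians left of 0.

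Genes of the pathway outside the 52 were set beside them. All 11 genes for V-ATPase assembly and partners were higher in replicate 2 (median log2 ratio 0.09, range 0.03 to 0.14), led in level by Rogdi (129 and 134 TPM) and Rnasek (107 and 113 TPM), then Oxr1 (92.9 and 91.9 TPM). Rogdi belongs to a complex that reassembles the pump on membranes. Of the V-ATPase paralogs with enough counts, 3 of 5 were higher, with Atp6v0e at 0.18 and Tcirg1 at -0.24. Other lysosomal hydrolases had 9 of 23 higher (median -0.05), or 13 of 23 (0.01) with spike-in scaling. Among the highest were Ids (111 and 122 TPM), which removes sulfate from heparan and dermatan sulfate, and Lgmn (92.1 and 88.0 TPM), an asparaginyl endopeptidase. Other membrane and sorting genes had 11 of 22 higher (median 0.00), or 17 of 22 (0.06) with spike-in scaling, led by the sorting receptors Sort1 (134 and 145 TPM) and Sorl1 (69.4 and 75.2 TPM), then Scarb2 (53.0 and 49.9 TPM), the receptor that carries glucocerebrosidase. Regulators had 10 of 16 higher (median 0.02; 7 of 16 and -0.01 by library size alone, 13 of 16 and 0.08 with spike-in scaling), led by Tsc2 (73.4 and 65.7 TPM), Rraga (54.9 and 59.9 TPM) and Lamtor2 (48.5 and 46.7 TPM). The 82 genes of these lists had a median level of 22.9 ± 0.714 TPM, under that of the 52.

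The 52 genes have 291 annotated transcripts, and most of their TPM fell on coding ones, with a median coding share of 95.3%. The median share on transcripts of the retained intron class was 2.07%, beside 3.10% over detected protein-coding genes. In 18 members a single transcript held more than 90% in both libraries. Of these, Atp6v1g1, Ctsk, Ctsz, Hexa and Laptm4a have only 1 annotated transcript, so their share was fixed at 100%. In 13 members the top transcript held less than 60% in 1 or both libraries. Shares over detected genes are not given for these counts of 18 and 13. In 2 members, Ctsb and Atp6v1d, the top transcript was of the retained intron class. Over detected genes, 7.68% have a noncoding top transcript.

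Ctsb-202 held 61.0% and 60.9% of Ctsb TPM in replicates 1 and 2. It begins 90 bases inside intron 3 (chr14:63135518-63135607, plus strand) and then runs through exons of the coding transcript. Of its 801 bases, only 91 lie outside the coding transcript Ctsb-201, which is 4743 bases long. Atp6v1d-202 held 66.8% and 66.6% of Atp6v1d TPM. It begins 87 bases inside intron 7 (chr12:78845305-78845391, minus strand), is 775 bases long and has only those 87 bases of its own, beside 3667 bases in the coding transcript Atp6v1d-201. The junctions are shown because they are where the noncoding transcripts and the coding ones part: the last 20 intron bases in lower case and the first 20 bases of the next exon in capitals, 5′ to 3′ (mm10).
Ctsb intron 3 to exon 4 (chr14:63135588-63135627, plus strand): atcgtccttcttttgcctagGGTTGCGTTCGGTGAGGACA
Atp6v1d intron 7 to exon 8 (chr12:78845285-78845324, minus strand): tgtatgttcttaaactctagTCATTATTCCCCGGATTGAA
TPM divides counts by length, so a short transcript takes a larger share by TPM than by count. By count, Ctsb-201 held 80.2% and Ctsb-202 19.3%, and Atp6v1d-201 held 70.0% and Atp6v1d-202 29.1%. Counted this way the top transcript was coding in all 52 members, with no share over detected genes by count to set beside it. The coding share of Ctsb and Atp6v1d thus depends on the unit. In all, 9 of the 52 genes had more than 20% of their TPM on retained intron transcripts, beside 19.6% of detected genes.

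**Figure D4:**
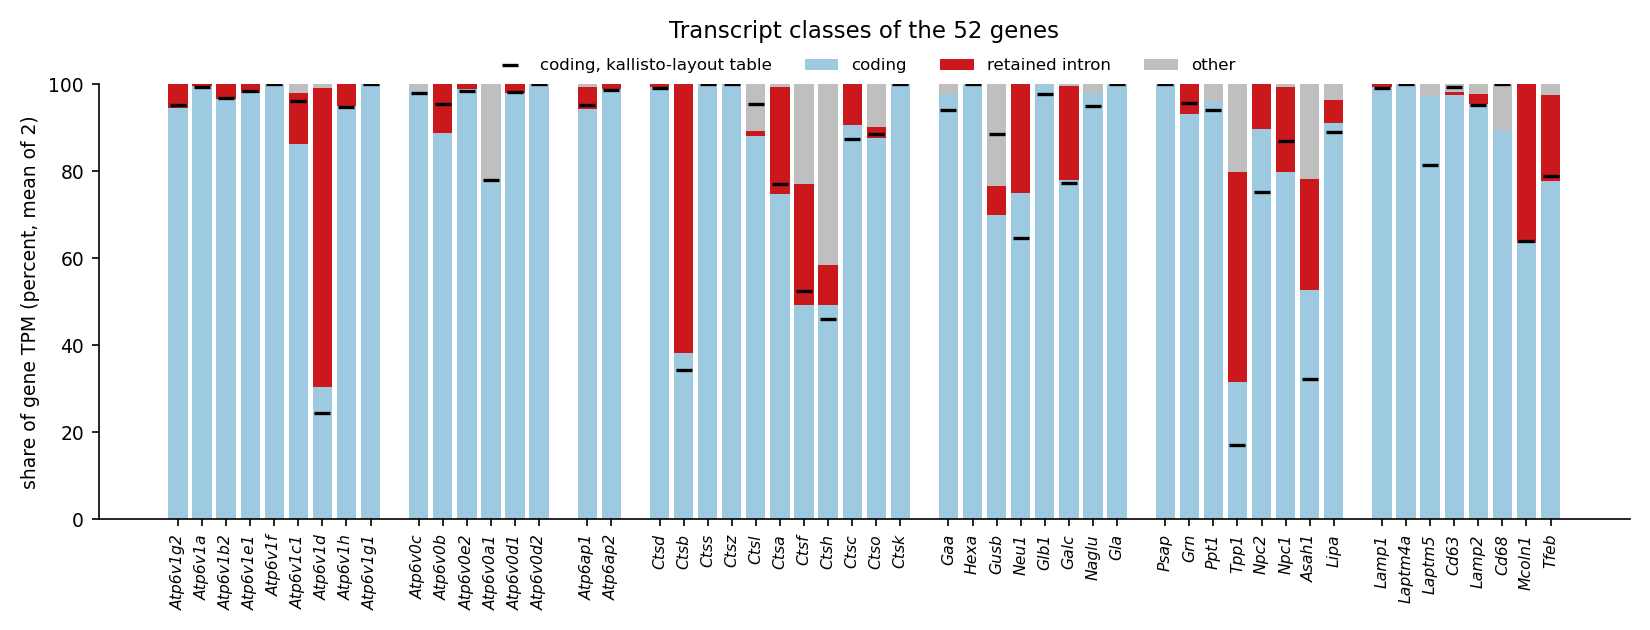
Share of each gene's TPM (percent, mean of the 2 libraries) on coding, retained intron and other transcripts, in the same gene order as the plot of levels; black ticks mark the coding share in the kallisto-layout table. Atp6v1d, Ctsb and Tpp1 have the lowest coding shares, and the ticks for Tpp1, Asah1, Laptm5 and Npc2 lie well below their bars.

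Other members with a divided transcript pool were Tpp1, Asah1, Ctsf, Ctsh, Ctsl, Ctsc, Gaa, Psap, Atp6v1a, Laptm5, Mcoln1 and Tfeb. In several of them the division depended on the table. In Tpp1 the coding Tpp1-201 held 34.3% and 28.7%, and retained intron transcripts 47.0% and 49.6%. In the kallisto-layout table Tpp1-201 averaged 17.1%, under a retained intron transcript at 27.8%. In Asah1 the coding Asah1-201 held 52.5% and 53.0%, but it averaged 28.6% in the kallisto-layout table, under Asah1-202 of the nonsense-mediated decay class at 36.5%. Ctsh-201 held 37.9% and 52.9%, while Ctsh-202 of the nonsense-mediated decay class held 46.6% and 36.7%, so the top transcript differed between the libraries. The kallisto-layout means were 17.7% for Ctsh-201 and 42.9% for Ctsh-202. Ctsl-201 held 50.2% and 47.6%, against a kallisto-layout mean of 36.9%, where Ctsl-203 reached 38.0%. In Gaa, Gaa-203 and Gaa-201 have coding sequences of equal length and averaged 45.9 ± 1.27% and 40.5 ± 3.57%, but 55.0% and 17.6% in the kallisto-layout table. Ctsf-201 held 44.5% and 47.8%, and Ctsc-201 held 53.0% and 52.4%. Atp6v1a-202 held 54.7% and 57.7% (40.4% in the kallisto-layout table), Laptm5-207 averaged 55.2%, and Mcoln1-201 held 51.0% and 58.6%, beside 36.6% on retained intron transcripts of Mcoln1. Tfeb had the lowest top share by gene table, with Tfeb-202 at 17.5% and 34.5% (36.2% in the kallisto-layout table), and in replicate 1 it stood under Tfeb-212 at 21.6%.

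All Psap TPM fell on coding transcripts. Psap-205, with 56.6% and 63.3%, contains a 9-base exon (chr10:60297537-60297545, plus strand) that Psap-202 (15.4% and 20.1%) and Psap-203 (27.5% and 15.7%) leave out. The kallisto-layout means were 59.4% for Psap-205, 25.7% for Psap-202 and 7.78% for Psap-203, which turns the order of the last pair. The exon is shown in capitals between 20 bases on either side in the transcript, since it changes the spacing in the saposin B region without shifting the frame.
Psap-205: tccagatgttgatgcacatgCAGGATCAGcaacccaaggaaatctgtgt
In Atp6v1h, picked after its values were seen, the transcript Atp6v1h-201 with a 54-base exon (chr1:5101070-5101123) held 16.6% and 19.7%, and Atp6v1h-204 without that exon held 70.2% and 67.7%. Their kallisto-layout means were 27.2% and 57.9%.

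The gene table and the kallisto-layout table gave similar levels for most members. After both were rescaled to protein-coding genes, the ratio of the second to the first had a median of 0.919 over the 52 and 0.963 over 13230 detected genes. It lay between 0.8 and the inverse of 0.8 in 48 members, beside 88.1% of detected genes. The exceptions were Gla at 1.32, Tpp1 at 1.30, Atp6v0d2 at 1.28 and Ctso at 0.795. For Gla the ratio was 1.64 in replicate 1 and 0.996 in replicate 2, so the tables differed in replicate 1. The highest transcript was the same in both tables in 47 members, the exceptions being Ctsh, Ctsl, Tpp1, Asah1 and Cd63. The share over detected genes is not given for this count. Atp6v1g1, Ctsk, Ctsz, Hexa and Laptm4a could not differ, since each has only 1 annotated transcript.

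The deposited uncertainty from reads that fit several genes was small. The deposited posterior SD of the count was 0 in both libraries for 44 of the 52, beside 82.3% of detected genes, and its largest value was 0.304% of the count, in Atp6v1f. Exons of some members overlap those of another gene. The same-strand gene Gm49369 covers 34.4% of Ctsd exon bases and had 16.7 and 12.1 TPM, far below Ctsd itself. On the opposite strand, Gm47123 covers 26.8% of Ctsl exon bases and was listed at 0, Fdft1 covers 12.8% of Ctsb and had 45.6 and 48.2 TPM, and Pltp overlaps Ctsa and had 48.5 and 48.2 TPM. Cap1 covers 3.51% of Ppt1 exon bases and stood above Ppt1, with 135 and 147 TPM. The labels point to a directional library kit, but whether counting used strand is not given in the sources used here, so reads in these stretches may be shared.

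Many lysosomal promoters are known to carry a short palindromic motif bound by Tfeb and its relatives, and promoters of members were searched for its centre, TCACGTGA, and for the shorter E-box CACGTG that lies inside it. Both read the same on either strand. RefSeq promoters (GRCm38.p6, 250 bases before to 50 after the start site) were matched for 43 of the 52. Those not in the table were Atp6v1b2, Atp6v1c1, Atp6v1g1, Atp6v1h, Atp6v0d2, Ctsb, Ctsh, Npc1 and Asah1. TCACGTGA occurred in 6 of 43 (14.0%), beside 2.14% of 10326 detected protein-coding genes, 1.12% of all 27025 promoters of the table and 7 of 64 (10.9%) of the other lysosome genes. CACGTG occurred in 13 of 43 (30.2%), beside 11.7% of those detected genes, 8.09% of all promoters and 16 of 64 (25%) of the other lysosome genes. The stretches that hold TCACGTGA are shown with the motif, or CACGTG where that stands alone, in capitals, 5′ to 3′ on the gene's strand. Lamp1 is added because it holds CACGTG more often than any other promoter shown.
Atp6v1a (chr16:44139360-44139415, minus strand): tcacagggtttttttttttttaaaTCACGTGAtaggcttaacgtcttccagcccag
Atp6v0d1 (chr8:105566037-105566092, minus strand): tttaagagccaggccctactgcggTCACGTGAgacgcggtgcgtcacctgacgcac
Ctsa (chr2:164833736-164833802, plus strand): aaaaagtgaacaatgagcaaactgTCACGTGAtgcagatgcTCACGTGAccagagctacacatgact
Ctsd (chr7:142387895-142387950, minus strand): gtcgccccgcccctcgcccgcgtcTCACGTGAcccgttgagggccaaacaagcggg
Gla (chrX:134601169-134601255, minus strand): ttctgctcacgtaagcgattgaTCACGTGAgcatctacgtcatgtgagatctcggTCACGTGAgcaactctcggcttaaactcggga
Mcoln1 (chr8:3500424-3500504, plus strand): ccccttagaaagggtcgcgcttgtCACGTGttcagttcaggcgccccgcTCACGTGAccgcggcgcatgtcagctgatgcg
Lamp1 (chr8:13159076-13159175, plus strand): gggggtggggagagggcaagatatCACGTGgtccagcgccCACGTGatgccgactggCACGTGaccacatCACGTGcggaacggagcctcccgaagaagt
The first base of the motif lay 132 bases before the start site in Atp6v1a, 99 in Ctsd, 46 in Mcoln1 and 4 in Atp6v0d1, where it reaches across that site. Ctsa and Gla each held 2 copies. The 6 genes ran from Gla at 4.94 TPM to Ctsd at 863 TPM, so the motif occurred at both ends of the range of levels. Atp6v0b, Ctsf, Ctsl, Gaa, Glb1, Lamp1 and Naglu held CACGTG without TCACGTGA. A match is a description of the letters in this window and not a measured binding site.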

How the data were processed

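Total RNA-seq of hippocampal tissue was analysed as 1 group of 2 libraries, from tables made by the authors for each library. Per the file headers and readme, the build is mm10 and the annotation GENCODE M21. The authors deposited expected counts, TPM and the posterior SD of the count (a score per row) in the column layout of RSEM, and estimated counts and TPM in the layout of kallisto. No aligner or counting program is given in the sources used here. Spike-ins share the TPM total with mouse genes. The 26248 rows with numeric names, 96 ERCC rows and 1 phiX row stayed out of library sizes (0.481% and 0.454% of counts).

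Levels are deposited TPM, as mean ± SD (n = 2), and a gene counts as detected where each library reaches 1 TPM. For ratios, expected counts were rounded and turned into TMM-scaled CPM by edgeR 4.0.16 in R 4.3.3, with a prior count of 2, for genes averaging 10 counts or more. Replicates differed by a coefficient of variation of 7.2%. It is termed biological in edgeR, but with a single donor record it may be technical. A count of 0 allows 3 counts, or 0.108 and 0.0933 CPM, and covers counting error only, since reads carry no molecular identifiers. The calculation of ratios was checked on simulated counts with known changes, and no measured ratio was put to a statistical test. Isoform shares are shares of gene TPM over transcripts. Exons, overlaps and transcript sequences were read from GENCODE M21, and promoters from RefSeq. The neighbours in an order of levels overlap where the ranges of their 2 libraries do.

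Named are all 52 members, the 3 highest genes of each other lysosome list with the V-ATPase paralogs, transcripts where the top share is under 60% or noncoding, the Lamp2 transcripts, and the 5 highest and 5 lowest ratios. A gene that this rule names is not reported here. The members and lists were chosen with earlier results of these data known. Alternatives were DESeq2 1.42.0 size factors, library size, spike-in scaling, other filters, prior counts and tables. Identity between paralog proteins was not analysed here. Tables were made with Python 3.11.15 and pandas 2.3.3, and figures with matplotlib 3.10.9.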

Additional observations from a re-analysis of the deposited data

How the results depend on the processing

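No paired analysis was possible because the series has 1 group. Leaving out either library gives the other library's value, with no test and no bearing on stability: the member median was 82.0 to 84.1 TPM. The kallisto-layout table moved levels by more than that SD: the member median to 74.7 TPM, V0 to 158.8 TPM, accessory proteins to 95.5 TPM, cathepsins to 95.1 TPM, glycosidases to 17.1 TPM and membrane and regulation to 72.9 TPM. In the same table Atp6v0a1 held 71.7%, Atp6v0e2 85.2%, Atp6v1g2 77.9% and Atp6v0c 74.2% of their subunits. The order within some roles also changed there. Tpp1 (58.2 TPM) stood above Ppt1 (46.0 TPM), and Asah1 (29.5 TPM) above Npc1 (21.7 TPM). Cd63 (103.0 TPM) stood above Laptm4a (102.3 TPM) and Laptm5 (97.9 TPM), and Atp6v1e1 (210.0 TPM) above Atp6v1a (195.9 TPM). TPM rescaled to nuclear protein-coding genes gave a member median of 185.7 TPM, by a smaller denominator. Detected members numbered 52 at a minimum of 0.1 TPM and 49 at 5 TPM. Members outside the V-ATPase that were higher in replicate 2 numbered 24 with spike-in scaling. Members past a log2 ratio of 0.32 downward fell from 1 to 0 at a mean count of 100, where Ctsk is not tested. Members with a noncoding top transcript numbered 5 in the kallisto-layout table and 0 by count. Promoters with CACGTG numbered 13. The sign of the log2 ratio differed from the TMM value in 3 members under library size (Ctsd, Grn, Ppt1), 9 under spike-in scaling and 3 with kallisto-layout counts (Cd63, Ctsb, Tfeb), with 0 V-ATPase members among them. The cause of these changes was not tested. Depth limits Ctsk and Atp6v0d2 most, and 2 libraries limit every SD.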
